A study of Bos taurus with 60 samples.

Results

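The liver miRNAs of Kinsella Composite (KC) steers were compared between 6 low-RFI and 6 high-RFI animals, which are 12 of the 60 steers sequenced in the series. Residual feed intake (RFI) is the part of an animal's feed intake that its growth and body weight do not account for, so low-RFI steers are the feed-efficient ones. The members were the KC steers whose labels give an RFI group, and KC steers without one were left out. KC is a herd of crossbred beef cattle that descends from a hybrid line of cows, with sires of the Angus, Charolais and Alberta Hybrid breeds and, in recent years, commercial crossbred sires as well. All 12 were castrated males finished on barley grain with barley silage and rumensin pellets, and their ages are not given in the labels. The study recorded the low-RFI group as older at slaughter on average than the high-RFI group, a difference not significant at its corrected threshold. The part of age in the miRNA differences was not tested. A piece of the right lobe of the liver was taken after slaughter, and each steer gave 1 small RNA library. The study took its 12 steers from the extremes of RFI and also asked that their miRNA expression be like that of other steers of the breed, so the groups were not formed blind to expression. Of 1030 known mature miRNAs listed, 385 had at least 1 CPM (the usual unit of a read count scaled by library size) in at least 6 of the 12 steers and were tested.

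miRNAs are short RNAs that guide Argonaute proteins to messenger RNAs, mostly through pairing of the seed, bases 2 to 8 from the 5′ end, and lower the output of those messages. Many are made mainly in 1 kind of cell, so a liver library holds hepatocyte miRNAs beside those of resident macrophages, blood cells, vessels, bile ducts and stroma. In bulk tissue, fewer cells of a type and less RNA per cell cannot be told apart. Genes of 1 family often share a seed, and genes of 1 cluster lie next to each other and can be transcribed together.

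The mature sequences of the 7 miRNAs called in the comparison show how little they have in common. They are given as the study lists them, 5′ to 3′, with the seed in capitals.
bta-miR-190a: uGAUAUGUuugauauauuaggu
bta-miR-1296: uUAGGGCCcuggcuccaucucc
bta-miR-1246: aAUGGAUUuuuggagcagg
bta-miR-147: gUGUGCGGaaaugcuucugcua
bta-miR-223: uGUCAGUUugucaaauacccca
bta-miR-449a: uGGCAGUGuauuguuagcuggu
bta-miR-363: aUUGCACGguauccaucugcg
No seed occurred more than once among them, and the 14 miRNAs with an unadjusted p under 0.05 carried 14 different seeds. For 6 of the 14, at least 1 other miRNA with the same seed was tested as well, and 4 such pairs are shown to mark where each differs.
bta-miR-190b: uGAUAUGUuugauauuggguu
bta-miR-34a: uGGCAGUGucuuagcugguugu
bta-miR-33b: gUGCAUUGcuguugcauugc
bta-miR-33a: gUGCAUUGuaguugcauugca
bta-miR-146b: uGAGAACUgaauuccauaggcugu
bta-miR-146a: uGAGAACUgaauuccauagguugu
Aligned from the 5′ end and counted from there, bta-miR-190a and bta-miR-190b first differ by A16U. bta-miR-33b and bta-miR-33a differ by C9U and U10A, and bta-miR-146b and bta-miR-146a by C21U alone. Reads of bta-miR-146a and bta-miR-146b may therefore have been split between them. The listed bta-miR-363 starts such that its bases 1 to 7 are the letters of the bta-miR-92a seed (bases 2 to 8), as in this relative.
bta-miR-92a: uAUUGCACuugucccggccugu

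Libraries held 4148747 to 6313374 counts in low-RFI steers and 4280199 to 6408603 in high-RFI steers, so 3 counts corresponded to 0.468 to 0.723 CPM. No 2 libraries were identical, and Spearman correlations between the 66 pairs of steers were 0.914 to 0.942. The 12 steers had 9 sires. Of these, 8 had 1 steer each, and the remaining sire had 4, of which low-RFI steer 4 was the only low-RFI one and high-RFI steers 1, 2 and 3 the others. This sire is called the shared sire in what follows, and triangles mark its progeny in the plot of single steers. Hepatocyte miRNAs held 340322 to 408180 CPM over the 12 libraries, as the labelled tissue would have it.

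At an unadjusted p under 0.05 and a fold change above 1.5, 7 of 385 miRNAs (1.82%) were called between low-RFI and high-RFI steers. Higher in low-RFI steers were bta-miR-363, bta-miR-147, bta-miR-449a and bta-miR-223, which is 4 of 385 (1.04%). Lower were bta-miR-190a, bta-miR-1296 and bta-miR-1246, which is 3 of 385 (0.779%). On p alone, 14 miRNAs (3.64%) passed, which is under the 5% that such a threshold lets through on average when nothing differs, and 11 of the 14 (2.86% of all tested) were higher in low-RFI steers. None had an adjusted p under 0.05 by edgeR's quasi-likelihood test with Benjamini-Hochberg adjustment, where the smallest was 0.159, while edgeR's likelihood-ratio test and DESeq2 gave 1 each. That 1 was bta-miR-190a in both tests.

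Most miRNAs differed little. The median log2 fold change, low-RFI minus high-RFI, was 0.03, and its median size without regard to sign was 0.10. For 210 of the 385 miRNAs (54.5%) the 95% interval of the fold change lay within 1.5-fold in either direction, so for them a change of that size was not seen at this depth and spread. All 46 miRNAs above 1000 CPM were among those 210, with log2 fold changes of -0.10 to 0.20. Only 1 of the 46 had a p under 0.05, bta-miR-142-5p.

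**Figure D1:**
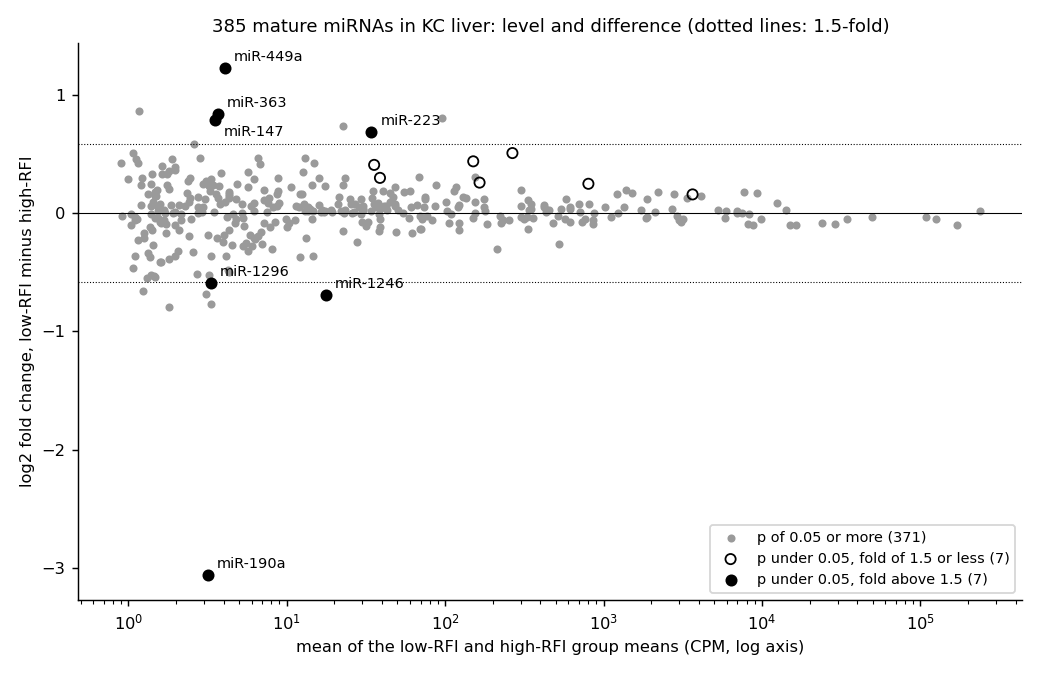
Each dot is 1 of the 385 miRNAs, with the mean level of the groups in CPM on a log x axis and the log2 fold change (low-RFI minus high-RFI) on the y axis. Filled black dots are the 7 called miRNAs, which all lie below 100 CPM, and open circles are the 7 with a p under 0.05 and a smaller fold change.

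bta-miR-190a, which lies inside TLN2, the gene of the cytoskeletal protein talin-2, by the RefSeq annotation of assembly ARS-UCD2.0, was far lower in the low-RFI group. Low-RFI steers 1 to 6 had 1.46, 0.687, 0.353, 0.614, 0.557 and 0.486 CPM, and high-RFI steers 1 to 6 had 9.67, 11.3, 9.46, 1.31, 1.16 and 1.09 CPM. The 3 high values belonged to the 3 high-RFI progeny of the shared sire, whereas its low-RFI progeny had 0.614 CPM. High-RFI steers 4, 5 and 6, from other sires, lay within the range of the low-RFI group, so the groups overlapped. This overlap came from low-RFI steer 1 alone, and the other 5 low-RFI steers were below every high-RFI steer. Of the low-RFI steers, 4 had 3 counts or fewer and only steer 1 was above 1 CPM. bta-miR-190a thus reached the level needed for testing almost only through the high-RFI group.
The log2 fold change was -3.06 with a standard error of 0.69 (95% interval -4.54 to -1.58, edgeR adjusted p = 0.159), and the exact two-sided permutation p was 0.00866. Both tests take the steers as independent, although the 3 high values all came from progeny of 1 sire. The p-values therefore do not separate RFI group from sire. Without the 4 steers of the shared sire, bta-miR-190a did not reach the level needed for testing, and the 5 low-RFI steers left at 0.353 to 1.46 CPM stood against 3 high-RFI steers at 1.09 to 1.31 CPM. Within the shared sire, the log2 difference between its 1 low-RFI and its 3 high-RFI steers was -4.00. Its relative bta-miR-190b, which has the same seed, had 0.244 to 2.04 CPM in low-RFI and 0.225 to 1.74 CPM in high-RFI steers. Its log2 fold change was 0.29 (95% interval -0.75 to 1.33).

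bta-miR-147, a miRNA of activated macrophages that lies in C10H15orf48, was the 1 miRNA of 385 (0.26%) whose groups did not overlap. Low-RFI steers 1 to 6 had 3.90, 4.98, 3.53, 4.30, 5.94 and 4.21 CPM, and high-RFI steers 1 to 6 had 2.25, 3.23, 2.73, 2.18, 2.12 and 2.90 CPM. The lowest low-RFI steer was thus just above the highest high-RFI steer. Relabeling separates the groups of a miRNA fully with a probability of 0.00216, so 1 of 385 is near the share that chance alone gives. The log2 fold change was 0.79 with a standard error of 0.19 (95% interval 0.39 to 1.19, edgeR adjusted p = 0.159), and its exact two-sided permutation p of 0.00216 is the smallest that the 924 relabelings of 12 steers can give. With sire as a block, a fit that rests on the 4 progeny of the shared sire, it was 0.64 and not called, and without those 4 steers it was 0.87 and called.

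bta-miR-223, the myeloid miRNA of neutrophils and macrophages, was higher in low-RFI steers. Their values were 60.5, 47.9, 38.3, 35.4, 33.1 and 39.4 CPM, against 28.6, 30.3, 35.6, 13.3, 21.6 and 27.1 CPM in high-RFI steers 1 to 6. High-RFI steer 3 was above low-RFI steers 4 and 5, and the other 5 high-RFI steers were below every low-RFI steer. The log2 fold change was 0.69 with a standard error of 0.21 (95% interval 0.24 to 1.14, edgeR adjusted p = 0.646, exact two-sided permutation p = 0.00649). It was 0.53 without high-RFI steer 4 and 0.56 without low-RFI steer 1, and then under the fold change that a call needs. With sire as a block it was 0.17 and not called, while without the 4 steers of the shared sire it was 1.04 and called.

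bta-miR-1296, which lies in JMJD1C, a gene of the histone demethylase family, was lower in low-RFI steers. Low-RFI steers 1 to 6 had 2.93, 2.92, 3.35, 2.46, 2.04 and 2.27 CPM, and high-RFI steers 1 to 6 had 3.15, 3.59, 3.53, 4.80, 5.02 and 3.98 CPM. Only low-RFI steer 3 reached into the high-RFI range. The log2 fold change of -0.59 (standard error 0.19, 95% interval -1.0 to -0.18, edgeR adjusted p = 0.741) lay at the edge of the 1.5-fold limit, and the exact two-sided permutation p was 0.00433. Without low-RFI steer 5 or 6 or high-RFI steer 4 or 5 it was -0.58 to -0.53 and just short of that limit, as it was at -0.56 with library totals only. With sire as a block it was -0.48 and not called.

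The remaining 3 called miRNAs overlapped widely, and their exact two-sided permutation p was above 0.05. bta-miR-449a, a miRNA of ciliated cells that lies in CDC20B beside bta-miR-449b and bta-miR-449c, had 2.93, 3.61, 4.23, 2.46, 9.47 and 11.5 CPM in low-RFI steers 1 to 6. High-RFI steers had 1.12, 2.15, 1.44, 0.654, 6.18 and 3.08 CPM, so that high-RFI steer 5 was above 4 of the low-RFI steers. Its log2 fold change was 1.23 (95% interval 0.17 to 2.29), with an exact two-sided permutation p of 0.0519, and 0.86 without low-RFI steer 6. It was no longer called without low-RFI steer 5 or 6 or high-RFI steer 1, 3 or 4. Nor was it called without the 4 steers of the shared sire (0.90), with sire as a block (0.62) or in a fit with the 24 steers of the other breeds (1.19).
bta-miR-363, of the X-linked paralogue of the miR-17-92 cluster, had 2.44, 3.09, 6.35, 3.69, 8.36 and 4.54 CPM in low-RFI and 3.37, 3.41, 3.69, 0.873, 1.54 and 2.90 CPM in high-RFI steers. Its lowest low-RFI steer was below 4 high-RFI steers. The log2 fold change was 0.84 (95% interval 0.10 to 1.58, exact two-sided permutation p = 0.0758), and 0.35 when low-RFI steers 3 and 5 were both left out. Its call was also lost without any 1 of low-RFI steers 3, 5 and 6 and high-RFI steers 4 and 5. With sire as a block it was 0.07 and not called, while without the 4 steers of the shared sire it was 1.42 and called.
bta-miR-1246, whose sequence in cattle is listed with 19 bases, had 21.2, 17.5, 11.5, 10.2, 8.36 and 12.5 CPM in low-RFI and 36.2, 20.3, 18.6, 32.1, 13.9 and 10.1 CPM in high-RFI steers. The high-RFI values were the more widely spread. The log2 fold change was -0.69 (95% interval -1.34 to -0.04, exact two-sided permutation p = 0.108), and the call was lost without any 1 of low-RFI steers 3 to 6 and high-RFI steers 1 and 4. It was -0.43 and not called without the 4 steers of the shared sire, and -1.28 and called with sire as a block. bta-miR-12044, which has the same seed, had a log2 fold change of -0.36 (95% interval -0.94 to 0.22).

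**Figure D2:**
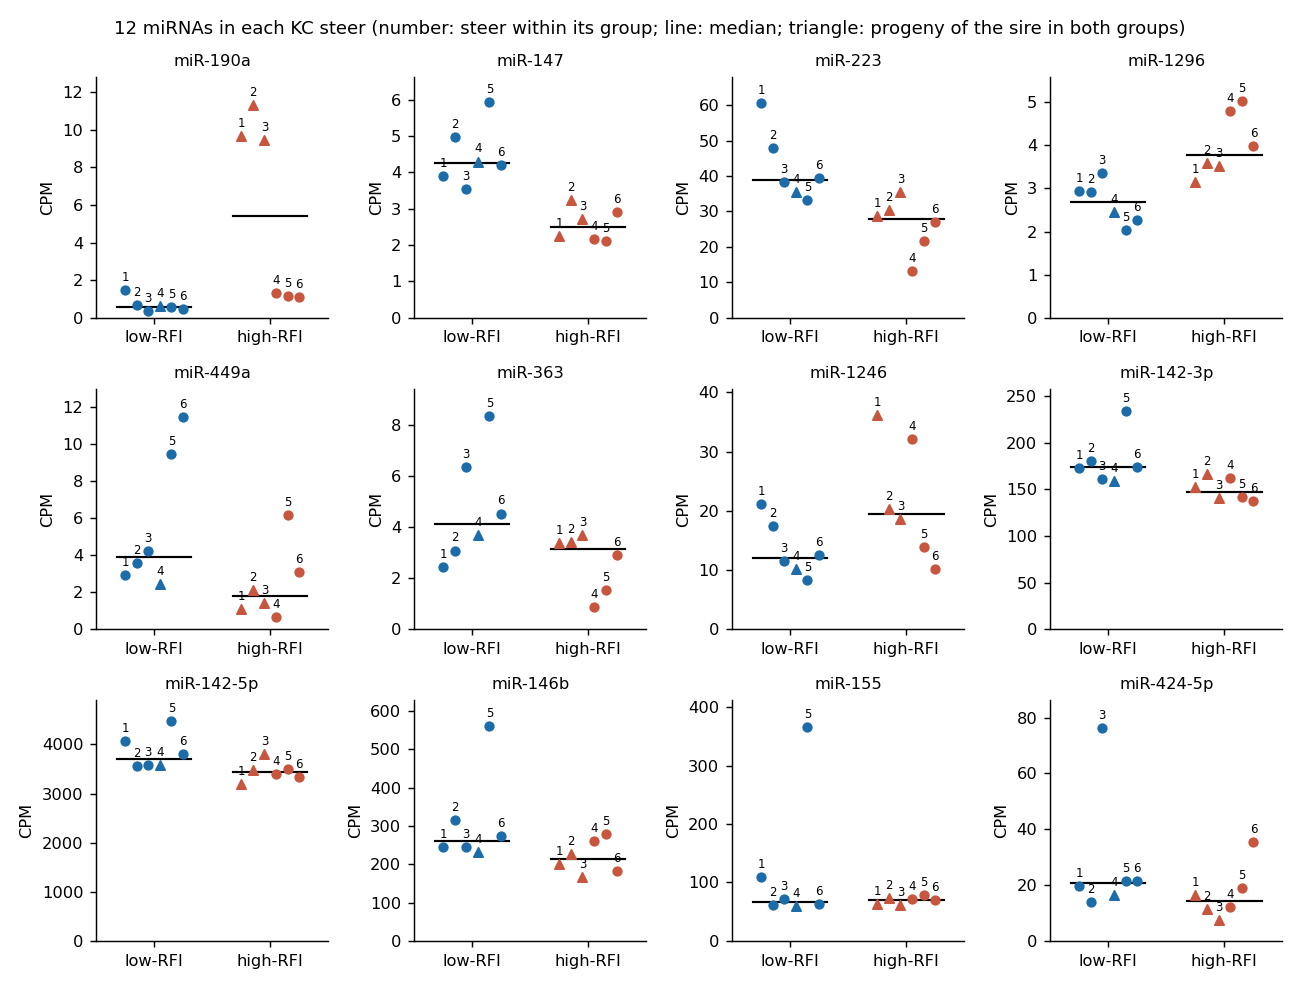
Each panel shows 1 miRNA, with CPM on the y axis from 0 and 1 point per steer, numbered within its group; lines are group medians and triangles the progeny of the shared sire. The high bta-miR-190a values are those of high-RFI steers 1 to 3, and low-RFI steer 5 stands at 366 CPM of bta-miR-155 while the other 11 steers lie at 60.4 to 110 CPM.

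Among miRNAs grouped by cell type, the myeloid list was the 1 of 9 in which each member had a p under 0.05. All 4 members had a positive log2 fold change, at a list median of 0.48, while 2.86% of all tested miRNAs were higher at that threshold and their median was 0.03. They were bta-miR-147, bta-miR-223 and both arms of bta-miR-142, which comes from 1 precursor and is made in blood cells of all lineages. The lists were chosen with earlier results of these data known, and the study had named bta-miR-147 and bta-miR-223 from these same steers. The count of 4 is therefore no independent evidence. bta-miR-142-3p had 159, 174 and 234 CPM (lowest, median and highest) in low-RFI and 138, 147 and 166 CPM in high-RFI steers, a log2 fold change of 0.26 (95% interval 0.04 to 0.48). bta-miR-142-5p had 3568, 3700 and 4471 CPM against 3194, 3432 and 3810 CPM, a log2 fold change of 0.16 (95% interval 0.01 to 0.30). For both arms every low-RFI steer was above the high-RFI median, as was also so for some miRNAs with a p of 0.05 or more.

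Low-RFI steer 5 weighed on these values. It had 234 CPM of bta-miR-142-3p, above the 159 to 180 CPM of the other low-RFI steers. Without it, 2 of the 4 myeloid members kept a p under 0.05, bta-miR-147 and bta-miR-223. The count was also 2 without low-RFI steer 2 or 6 or high-RFI steer 1, 5 or 6, and 3 or 4 without any other single steer. Without the 4 steers of the shared sire the count was also 2, and with sire as a block it was 0. The count of 4 also rests on bta-miR-142-5p, which had the smallest difference. Its p was above 0.05 with RLE normalization, the likelihood-ratio test, DESeq2, no filter, at least 10 counts in every steer, summed precursors, the pairs listed only for KC left out and 36 steers in 1 fit (log2 fold changes of 0.13 to 0.16), so that the count was 3 under each of these. The summed myeloid miRNAs reached 3774 to 4744 CPM in low-RFI and 3378 to 3989 CPM in high-RFI steers, so that the groups overlapped. Most of this sum was bta-miR-142-5p, which on average made up 3846 of 4073 CPM in low-RFI and 3450 of 3628 CPM in high-RFI steers.

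Of 5 lymphocyte miRNAs all had a positive log2 fold change, and 1 had a p under 0.05. bta-miR-146b, a miRNA of activated immune cells, had 233, 260 and 562 CPM in low-RFI and 168, 213 and 279 CPM in high-RFI steers. Its log2 fold change was 0.51 (95% interval 0.07 to 0.96), and 0.25 without low-RFI steer 5, where its p was 0.0977 by edgeR's quasi-likelihood test. Its p was also above 0.05 without low-RFI steer 2 or high-RFI steer 1, 3 or 6, at log2 fold changes of 0.44 to 0.50. For its near copy bta-miR-146a it was 0.16 (95% interval -0.08 to 0.40).
bta-miR-155, which rises in activated lymphocytes and macrophages, had 60.4, 66.6 and 366 CPM in low-RFI and 61.0, 70.7 and 79.2 CPM in high-RFI steers. The low-RFI median was below the high-RFI median, and the log2 fold change of 0.81 (95% interval -0.06 to 1.68) became 0.05 without low-RFI steer 5. bta-miR-150, of resting lymphocytes, had 67.2, 95.2 and 122 CPM against 68.1, 78.4 and 91.6 CPM, a log2 fold change of 0.24 (95% interval -0.06 to 0.53). The summed lymphocyte miRNAs were at 1584 to 2824 CPM in low-RFI and 1500 to 1880 CPM in high-RFI steers, with low-RFI steer 5 the highest.

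**Figure D3:**
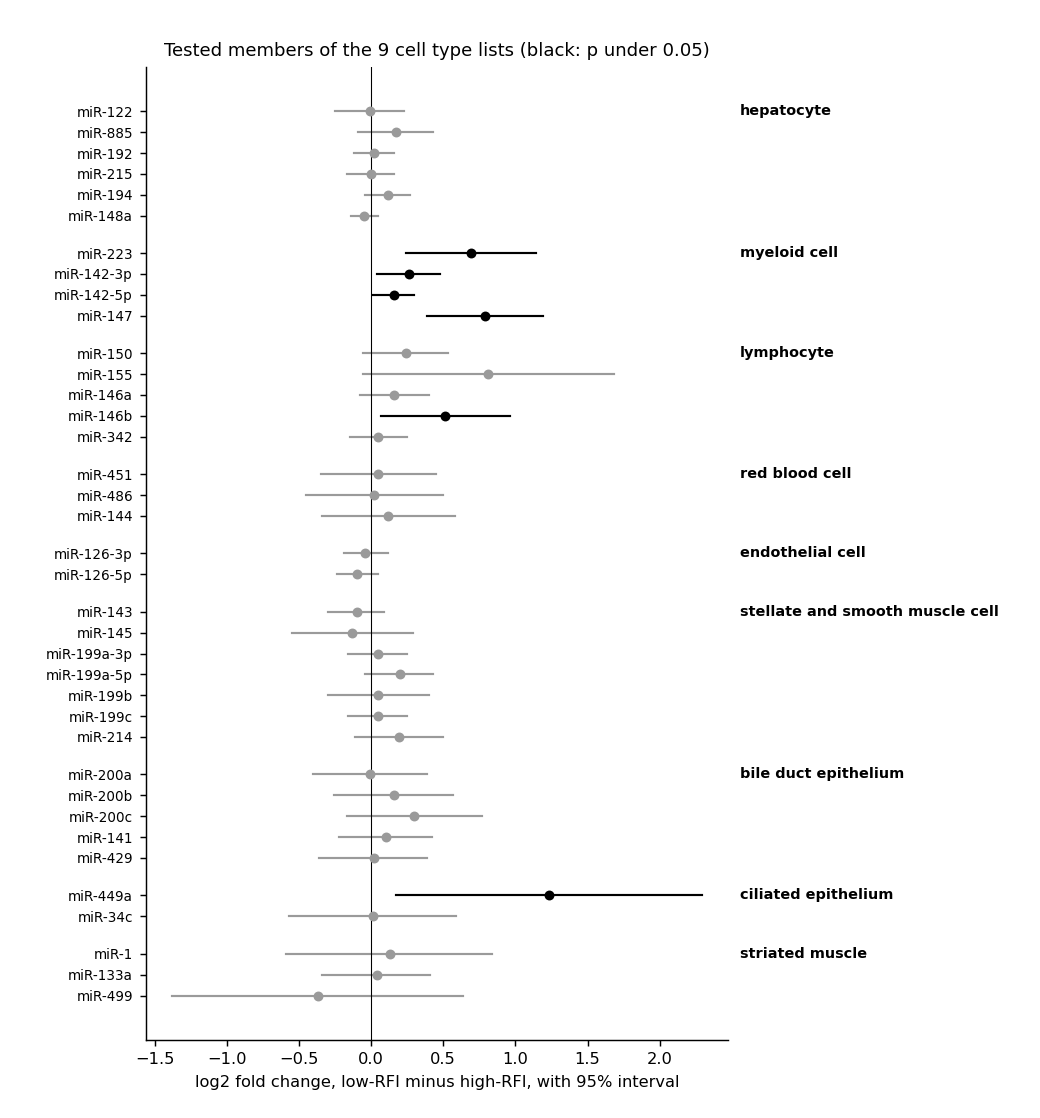
Points are log2 fold changes (low-RFI minus high-RFI) and bars their 95% intervals for the tested members of 9 cell type lists, in black where p was under 0.05. The 4 myeloid members, bta-miR-146b and bta-miR-449a are black, and the intervals of all hepatocyte, red blood cell, endothelial, stellate, bile duct and muscle members include 0.

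The other cell types gave no member with a p under 0.05, apart from bta-miR-449a in the ciliated list. Hepatocyte miRNAs had log2 fold changes of -0.05 to 0.17 (6 tested), and bta-miR-122, the main miRNA made only by hepatocytes, had 6997 to 10860 CPM in low-RFI and 6906 to 9518 CPM in high-RFI steers. Its log2 fold change was -0.01 (95% interval -0.25 to 0.23). bta-miR-885, also of hepatocytes, had one of 0.17 (95% interval -0.09 to 0.43).
The red blood cell miRNAs bta-miR-486 and bta-miR-451 had log2 fold changes of 0.02 and 0.05. The summed red blood cell list was highest in low-RFI steer 1, at 13433 CPM, mostly bta-miR-486, which had 12484 CPM there and 3628 to 7904 CPM in the other 11 steers. Endothelial bta-miR-126-3p and bta-miR-126-5p had -0.04 and -0.10, and the 7 stellate and smooth muscle miRNAs -0.13 to 0.20, with bta-miR-143 at -0.10 and bta-miR-145 at -0.13.
Bile duct miRNAs of the miR-200 family had log2 fold changes of -0.01 to 0.30, with bta-miR-200a at -0.01 and bta-miR-200b at 0.16. Of 7 striated muscle miRNAs 3 were tested, and bta-miR-1 and bta-miR-133a had 0.13 and 0.04. Of 6 ciliated cell miRNAs 2 were tested. Besides bta-miR-449a this was bta-miR-34c at 0.01 (95% interval -0.57 to 0.59), while bta-miR-449b, bta-miR-449c and bta-miR-34b had at most 5 counts in any steer.

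No tested relative of a called miRNA had a p under 0.05. bta-miR-34a, which has the seed of bta-miR-449a and is a target of p53, had 7.32 to 22.7 CPM in low-RFI and 7.86 to 15.3 CPM in high-RFI steers, with a log2 fold change of 0.47 (95% interval -0.12 to 1.06). In the miR-17-92 family and its paralogues, which promote cell division, bta-miR-363 was 1 of 13 tested members with a p under 0.05, at a family median of 0.00. bta-miR-92a, whose seed has the letters of bases 1 to 7 of bta-miR-363, had a log2 fold change of 0.00 (95% interval -0.16 to 0.17) and bta-miR-25 of -0.03 (95% interval -0.14 to 0.09). Of its neighbours on the X chromosome, bta-miR-106a had 0.29 (95% interval -0.15 to 0.72), whereas bta-miR-20b and bta-miR-18b were too low to be tested.

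Over all tested miRNAs 14 of 385 (3.64%) had a p under 0.05, and whether families held more was not tested. Of 25 families and clusters, 6 had a member with such a p, and in 5 of these it was 1 miRNA. The exception was the X-linked cluster of bta-miR-424, bta-miR-542 and bta-miR-450, whose genes follow each other in the RefSeq annotation. Its 5 tested members had log2 fold changes of 0.24 to 0.74, all positive, at a median of 0.44, and 2 of the 5 had a p under 0.05, where 2.86% of all tested miRNAs were higher at that threshold. Genes of 1 cluster can be transcribed together, and both arms of bta-miR-424 are among the 5, so the members are not separate cases. The list was chosen with earlier results of these data known, and the study had named bta-miR-424-5p from these same steers. These counts are therefore no independent evidence. The sequences of the 2 with a p under 0.05, bta-miR-450a and bta-miR-450b, differ within the seed, by G7A.
bta-miR-450a: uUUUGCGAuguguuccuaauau
bta-miR-450b: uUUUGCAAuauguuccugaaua
bta-miR-450b had 147, 165 and 220 CPM in low-RFI and 87.8, 136 and 160 CPM in high-RFI steers, a log2 fold change of 0.44 (95% interval 0.08 to 0.79, exact two-sided permutation p = 0.0281). bta-miR-450a had 34.3, 37.0 and 58.9 CPM against 24.1, 28.4 and 44.0 CPM, a log2 fold change of 0.41 (95% interval 0.05 to 0.78, exact two-sided permutation p = 0.039). Low-RFI steer 3 was the highest for both. Without it their log2 fold changes were 0.34 and 0.26, and neither kept a p under 0.05. The same held for both without high-RFI steer 4, and for bta-miR-450a also without low-RFI steer 5 or high-RFI steer 1, 2 or 3. Without the 4 steers of the shared sire they were 0.26 for bta-miR-450b and 0.25 for bta-miR-450a, and neither had a p under 0.05.
bta-miR-424-5p, a miRNA of vascular and dividing cells, had 76.4 CPM in low-RFI steer 3 and 14.1 to 21.5 CPM in the other low-RFI steers, against 7.54 to 35.3 CPM in high-RFI steers. Its log2 fold change of 0.74 (95% interval -0.20 to 1.67) fell to 0.12 without low-RFI steer 3. Its opposite arm bta-miR-424-3p had 0.24 (95% interval -1.0 to 1.48).

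miR-33 and miR-193 are families with known roles in lipid metabolism. bta-miR-33b lies in SREBF1, the gene of a transcription factor for fatty acid synthesis, and bta-miR-33a in the related SREBF2. bta-miR-33b had 33.2, 44.3 and 49.4 CPM in low-RFI and 30.7, 33.2 and 41.4 CPM in high-RFI steers, with a log2 fold change of 0.30 (95% interval 0.03 to 0.57), while that of bta-miR-33a was 0.06. bta-miR-193b had 684, 878 and 1030 CPM against 567, 756 and 845 CPM, a log2 fold change of 0.25 (95% interval 0.01 to 0.50). Its neighbour bta-miR-365-3p had one of -0.09 (95% interval -0.37 to 0.19). For both bta-miR-33b and bta-miR-193b the groups overlapped, and the exact two-sided permutation p was 0.0433 and 0.0779. The 2 were above a p of 0.05 when size factors were computed by the RLE method. The same held with summed precursors, with 36 steers in 1 fit and without the shared sire's steers. bta-miR-193b was also above it by the likelihood-ratio test, by DESeq2 and with at least 10 counts in every steer. Leaving out 1 steer took bta-miR-33b above 0.05 for 7 of the 12 steers and bta-miR-193b for 9.

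**Figure D4:**
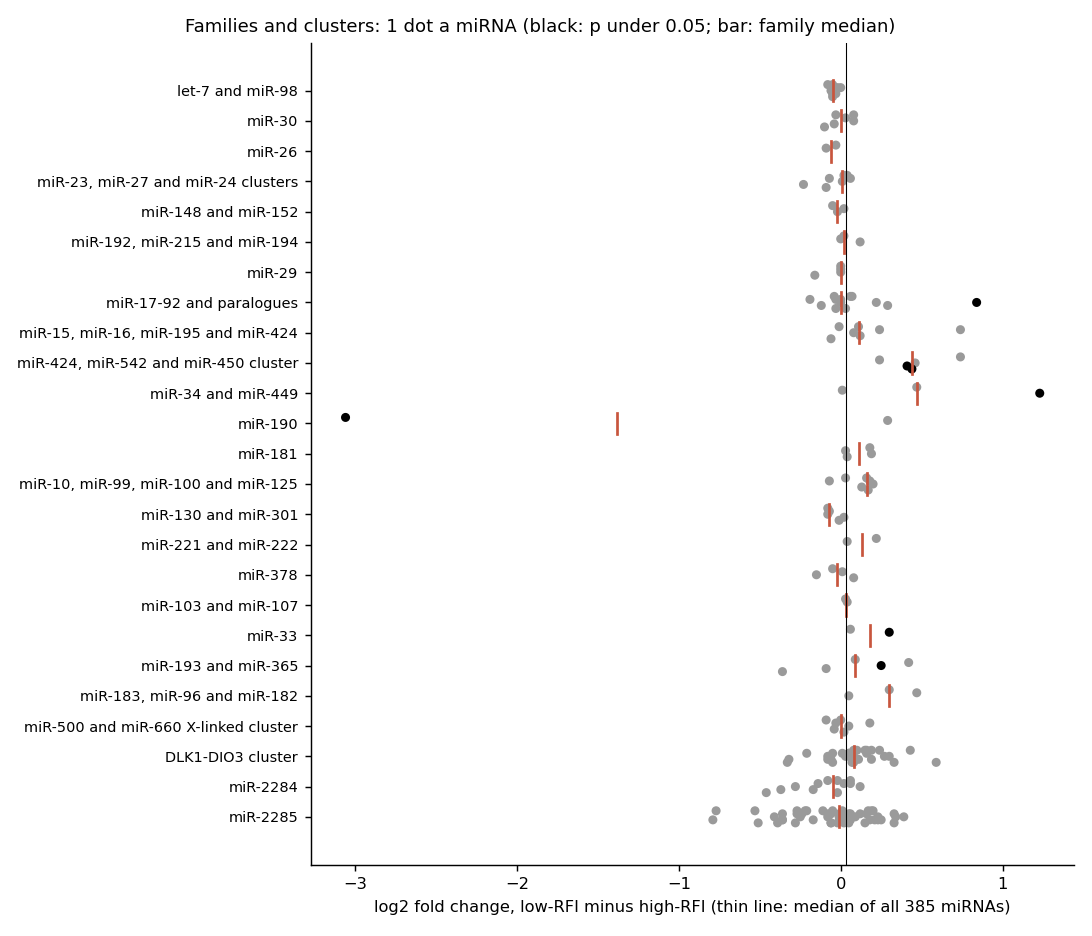
Dots are the log2 fold changes (low-RFI minus high-RFI) of the tested members of 25 families and clusters, in black where p was under 0.05, and bars are family medians. Apart from miR-190, with 2 members, family medians lie between -0.07 and 0.47, and the thin line is the median of 0.03 over all 385 miRNAs. The highest, at 0.47 and 0.44, are those of miR-34 and miR-449 and of the miR-424, miR-542 and miR-450 cluster.

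The 19 families without such a member held 171 tested miRNAs, counted once for each list, with medians of -0.07 to 0.30. The let-7 family, which holds back growth and is high in mature tissue, had log2 fold changes of -0.08 to 0.00 over 9 members and summed to 39844 to 45211 CPM in low-RFI and 41527 to 46396 CPM in high-RFI steers. In the miR-30 family of 6 they were -0.10 to 0.08. The imprinted DLK1-DIO3 cluster, which is known from fetal growth, had 31 tested members with log2 fold changes of -0.33 to 0.59, of which 23 were positive, at a median of 0.08. Its summed level was 4049 to 9556 CPM in low-RFI and 5308 to 9133 CPM in high-RFI steers. The families miR-2284 and miR-2285, which expanded in ruminants, had 12 and 53 tested members with medians of -0.05 and -0.01. The lowest of the latter, bta-miR-2285co, had a log2 fold change of -0.79 (95% interval -1.71 to 0.13).

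The 10 most abundant miRNAs had log2 fold changes of -0.10 to 0.02. bta-miR-192, the highest and a miRNA of hepatocytes and gut epithelium, had 202272 to 261124 CPM in low-RFI and 213346 to 255986 CPM in high-RFI steers (95% interval of the log2 fold change -0.12 to 0.16). The intervals were -0.30 to 0.09 for bta-miR-143 of smooth muscle and stellate cells, -0.14 to 0.05 for bta-miR-148a, which acts on the LDL receptor, and -0.19 to 0.13 for bta-miR-30a-5p. For bta-miR-26a, bta-miR-22-3p and bta-miR-27b they were -0.15 to 0.09, -0.23 to 0.13 and -0.21 to 0.03. Those of bta-let-7f, bta-miR-126-5p and bta-miR-101 were -0.21 to 0.05, -0.24 to 0.05 and -0.21 to 0.01. None of these intervals reached a 1.5-fold change.

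Both arms were tested for 28 precursors. The log2 fold changes of the arms had the same sign in 17 of the 28, and the median size of the difference between arms was 0.16. The largest, 0.50, was that of bta-miR-424, for which the ratio of the 5p to the 3p arm was 10.1 to 80.0 in low-RFI and 7.40 to 19.6 in high-RFI steers. The 3p arm of bta-miR-424, bta-miR-424-3p, had 3 counts or fewer in 1 steer of each group and 0.205 CPM in the low-RFI steer where it was lowest, so this ratio rests on very few reads.

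The study named 10 known miRNAs for KC by its own test on these 12 steers, so their values here are no independent evidence. Of the 10, 6 were called above, with bta-miR-1296 called in addition, and bta-miR-155 and bta-miR-424-5p rested on 1 steer each. The others were bta-miR-2411-3p, a cattle miRNA at 1.23 to 4.37 CPM in low-RFI and 1.09 to 6.52 CPM in high-RFI steers, with a log2 fold change of -0.68 (95% interval -1.48 to 0.13), and bta-miR-2483-5p, at 0.244 to 3.07 and 0 to 1.62 CPM, with one of 0.87 (95% interval -0.34 to 2.07). For the latter 1 low-RFI and 2 high-RFI steers had 3 counts or fewer.

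To ask whether these differences were particular to KC, they were compared with the same contrast in the 12 Angus and the 12 Charolais steers, in 1 fit of 36 steers and 426 miRNAs. The difference between the KC and Angus effects had a p under 0.05 for 11 miRNAs (2.58%), and that between KC and Charolais for 27 (6.34%). By edgeR's quasi-likelihood test none of either had an adjusted p under 0.05, and the likelihood-ratio test gave none.
The bta-miR-190a effect of KC, -3.08 in this fit, stood against -0.44 in Angus and -0.20 in Charolais. The differences were -2.64 with a standard error of 0.88 and -2.89 with one of 0.96 (edgeR adjusted p = 1 and 0.5). For bta-miR-147 the effects were 0.76, 0.04 and -0.02, and for bta-miR-223 they were 0.66, 0.01 and -0.11 in KC, Angus and Charolais. None of these differences had an adjusted p under 0.05.
The smallest adjusted p was that of bta-miR-450a between KC and Charolais, where effects of 0.38 and -0.55 differed by 0.92 with a standard error of 0.24 (edgeR adjusted p = 0.16). For bta-miR-450b they were 0.40 and -0.39 (adjusted p = 0.314). The effects of bta-miR-449a were 1.19, 0.77 and 1.1 in KC, Angus and Charolais, with standard errors of 0.61 to 0.73. bta-miR-146b had 0.49 in KC, -0.33 in Angus and -0.21 in Charolais.

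**Figure D5:**
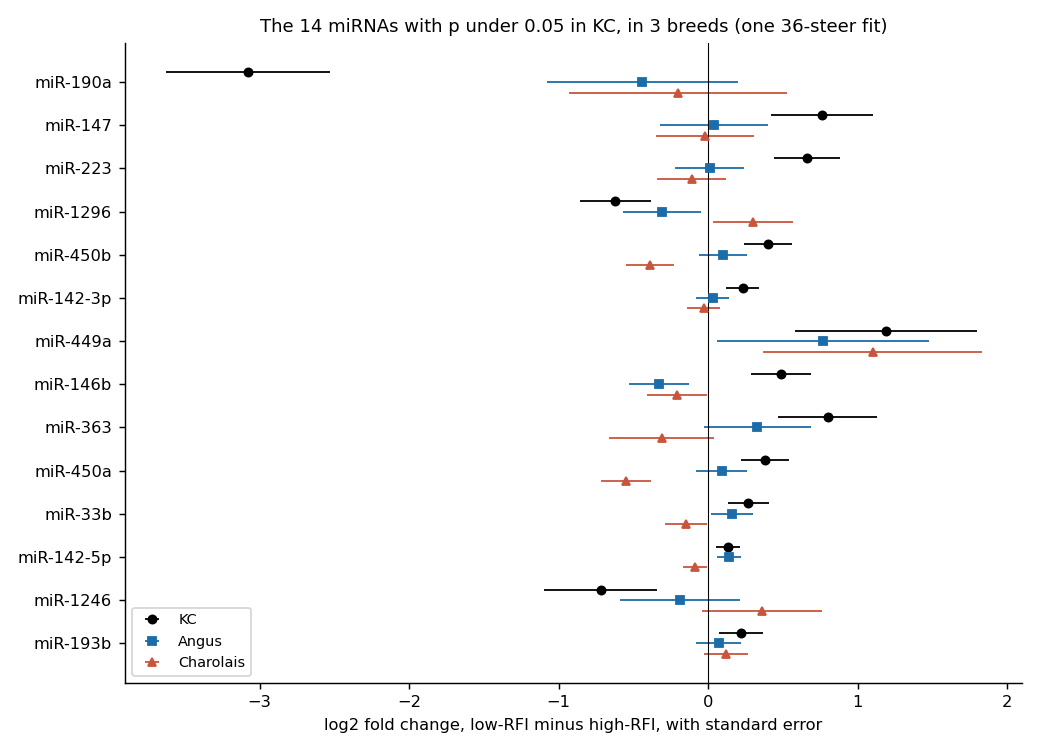
Points are the log2 fold changes (low-RFI minus high-RFI) and bars the standard errors of the 14 miRNAs with a p under 0.05 in KC, in KC (circles), Angus (squares) and Charolais (triangles), from 1 fit of 36 steers. In Angus and Charolais the effects of bta-miR-190a are -0.44 and -0.20, and those of bta-miR-223 0.01 and -0.11.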

How the data were processed

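Liver small RNA of the 12 KC steers was used as raw read counts per mature miRNA and precursor, as deposited by the authors. Per the labels and the study's methods, adaptors were clipped with cutadapt 1.16, reads of 15 to 28 bases were kept, other small RNAs were removed, and reads were counted with miRDeep2 and Bowtie 1.1.1 against UMD3.1 and miRBase release 22, without normalization. Mature sequences are those the study lists.

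Where several precursors give the same mature miRNA, their counts were averaged, then rounded. Low-RFI and high-RFI steers were compared without covariates after TMM normalization, with the quasi-likelihood test of edgeR 4.0.16 in R 4.3.3, over the miRNAs that reached 1 CPM in 6 or more of 12 steers. Adjusted p-values follow Benjamini and Hochberg over all miRNAs tested. Exact two-sided permutation tests used log2 CPM with a prior count of 0.5. The procedure was tested on simulated data. Alternatives, with DESeq2 1.42.0 for 1 of them, cover test, normalization, filter, precursors, choice of steers, sire and leaving out each steer. A robust fit and leaving out low-RFI steers 3 and 5 were added after seeing the data. Tables and figures were made in Python 3.11.15.

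The steers, lists and tests were chosen with earlier results of these data known. Named are the called miRNAs with their same-seed relatives and other arms, the 10 with the smallest p, list members with a p under 0.05, the 10 most abundant, those the study named for KC, and the first 2 of each cell type list. bta-miR-92a, bta-miR-25, bta-miR-106a, bta-miR-20b, bta-miR-18b, bta-miR-33a, bta-miR-146a, bta-miR-365-3p, bta-miR-424-3p and bta-miR-2285co were added as family members after their values were seen. p-values measure the spread between steers with 1 library each. Predicted miRNAs were not analysed here. RefSeq gene names and neighbours are of ARS-UCD2.0, and no coordinates were used.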

Additional observations from a re-analysis of the deposited data

Results flagged for a closer look

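Of 104 groups of 6 steers examined, 8 held a highest or lowest value far from the other 5, by a gap of more than 0.625 of the group's range. Chance alone gives about 1 in 20 for groups of unselected values. Many of these miRNAs were named for their difference between these steers, so that rate is no baseline for the 8. All 8 were high values in low-RFI steers. Low-RFI steer 5 had 3 of them. Its bta-miR-155 was 366 CPM against 60.4 to 110 CPM in the other low-RFI steers, its bta-miR-146b 562 CPM against 233 to 316 CPM, and its bta-miR-142-3p 234 CPM against 159 to 180 CPM. Low-RFI steer 3 also had 3. Its bta-miR-424-5p was 76.4 CPM against 14.1 to 21.5 CPM, its bta-miR-450a 58.9 CPM against 34.3 to 42.0 CPM, and its bta-miR-101 16012 CPM against 13903 to 14677 CPM. Low-RFI steer 1 had 1.46 CPM of bta-miR-190a against 0.353 to 0.687 CPM, and low-RFI steer 4 had 5.12 CPM of bta-miR-1 against 1.30 to 2.68 CPM. The part of these steers in each difference is given by the values without them, and what sets them apart was not tested.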

How the results depend on the processing

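No paired analysis was possible because steer numbers within a group only name the animals. The count of 7 calls (4 higher, 3 lower) was 15 (11 higher) with no filter on low counts, 4 (2 higher) with at least 10 counts in every steer, 14 (7 and 7) with sire as a block, 13 (7 and 6) without the shared sire's 4 steers and 4 (2 higher) without low-RFI steers 3 and 5. Leaving out each steer gave 3 to 13 calls, 2 to 7 higher and 1 to 6 lower, the lowest without low-RFI steer 5 or high-RFI steer 4, and 11 or more without low-RFI steer 2, low-RFI steer 4 or high-RFI steer 6. The count of 14 with p under 0.05 was 23 with no filter and 6 to 20 without single steers, and 1 instead of 0 had an adjusted p under 0.05 by the likelihood-ratio test, DESeq2 and 36 steers in 1 fit. bta-miR-190a and bta-miR-147 were called without any single steer, and bta-miR-223 in 10 of these 12 fits, bta-miR-1296 in 8, bta-miR-363 and bta-miR-449a in 7 each and bta-miR-1246 in 6. With precursor counts summed bta-miR-190a was too low to be tested. Sire as a block, which compares 1 low-RFI with 3 high-RFI steers, left bta-miR-190a and bta-miR-1246 called of the 7. Without the shared sire's steers 4 of the 7 were still called, bta-miR-449a and bta-miR-1246 were not and bta-miR-190a could not be tested. The cause of these shifts was not tested, beyond the fewer steers or miRNAs in each fit.

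The values that changed sign were those of miRNAs not called. Most lay near 0, except that of bta-miR-155, which was 0.81. The log2 fold changes of bta-miR-192, bta-miR-486 and bta-miR-34c were -0.01, -0.01 and -0.02 with RLE, DESeq2 and summed precursors, -0.01, -0.02 and -0.02 with 36 steers in 1 fit, and 0.00, -0.01 and -0.01 without pairs listed only for KC. Library totals only gave bta-miR-122 0.01 and bta-miR-200a 0.02. Sire as a block gave bta-miR-22-3p 0.09, bta-miR-155 -0.12, bta-miR-122 0.35, bta-miR-451 -0.31, bta-miR-486 -0.50 and bta-miR-200a 0.26. Without the shared sire's steers bta-miR-192 was -0.02, bta-miR-30a-5p 0.08, bta-miR-200b -0.04, bta-miR-1 -0.52, bta-miR-133a -0.11 and bta-miR-34c -0.19. Without low-RFI steers 3 and 5 bta-miR-122 was 0.05, bta-miR-451 -0.04, bta-miR-200a 0.14, bta-miR-133a -0.02 and bta-miR-34c -0.15. Without single steers the ranges were -0.21 to 0.27 for bta-miR-1, -0.13 to 0.02 for bta-miR-122, -0.09 to 0.13 for bta-miR-133a, -0.04 to 0.05 for bta-miR-192, -0.14 to 0.08 for bta-miR-200a, -0.01 to 0.24 for bta-miR-200b, -0.09 to 0.01 for bta-miR-26a, -0.22 to 0.12 for bta-miR-34c, -0.09 to 0.16 for bta-miR-451 and -0.24 to 0.13 for bta-miR-486. Of 1047 such values for named miRNAs, 922 kept their direction and side of the threshold.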
